A study of Homo sapiens with 16 samples.

Results

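Genes that span at least 400 kb of the genome were examined in HEK293T cells, a transformed human embryonic kidney line, after 2 inhibitors of chromatin regulators and after expression of a histone variant carrying a point change. A gene entered the set when the distance from its first to its last annotated exon end was at least 400000 bases and its mean raw count over the 16 libraries was at least 30, with genes of several families left out by the start of their name (among them the protocadherins, SLIT and ROBO genes, SOX and FOX factors and collagens) and antisense transcripts left out as well. The members were thus chosen by their span, their name and their mean level, the only measured value in the rule, and 296 of 57500 genes qualified. Of 576 genes of at least 400 kb, 251 had too low a count and 29 were left out by name, of which 15 had a count high enough to enter.

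Total RNA was sequenced from 4 groups of 4 samples. The control cells carried a lentiviral vector for histone H2A and are labelled DMSO in their titles and untreated in their treatment field (H2A_DMSO), with no exposure time given. Another group carried the vector for H2A with the E92K change and is labelled in the same way (E92K_DMSO). The other 2 groups were the H2A cells with JQ1 at 1 µM for 3 h, and with pinometostat at 2.5 µM for 24 h, taken from the sample field since the treatment text gives this dose in millimolar. Every cell line of the study therefore carries a vector, and the same 4 H2A_DMSO libraries serve as the control of all 3 comparisons. The labels give neither the promoter nor the copy number of the vector, nor whether a line is 1 clone. The labels number the 4 samples of a group without saying that they are separate cultures, so the p-values reflect sample-to-sample spread that could be technical.

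JQ1 displaces the BET bromodomain proteins from acetylated histones, and proteins of this family help to release paused RNA polymerase II into elongation. Pinometostat inhibits DOT1L, the enzyme that methylates lysine 79 of histone H3 along the bodies of transcribed genes. A polymerase needs hours to travel the length of the longest human genes, and nearly all of that length is intron. Long genes are for this reason often examined when transcription elongation is disturbed, and many of them encode adhesion, synaptic and signalling proteins or lie at common fragile sites.

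The members spanned 400480 bases (BMPR1B, a receptor for bone morphogenetic proteins) to 2304996 bases (CNTNAP2, a neurexin-like adhesion protein), with a median of 550.4 kb against 27.0 kb for the 17306 genes tested. Their exons made up a median of 1.62% of the span, against 16.9% over all tested genes. They had a median of 27 separate exon blocks and 9848 exonic bases, against 9 blocks and 4342 bases. Their transcripts were poorer in G and C: the median GC content of the longest annotated transcript was 44.5% in members and 48.8% in all tested genes, close to the 44.5% of the 873 tested genes of 200 to 400 kb. The median member had a mean count of 250 and a level of 3.21 TPM (a count scaled to exonic length and library), against 357 counts and 9.15 TPM over all tested genes. By annotation 291 members were protein-coding and 5 were not, and they lay on 23 chromosomes. All 296 passed the filter on low counts, and 284 had a group mean count of at least 30 in every one of the 4 groups, so that no member entered through 1 group alone.

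The rule's thresholds cut through a continuum. KCNB2, a potassium channel subunit, had a span of 400958 bases and was inside, and the kinase gene TNIK, with 399069 bases, was outside, as was HECW2, a ubiquitin ligase, with 399322. RGS7, a regulator of G-protein signalling, was inside with a mean count of 31.7, as was ANKS1B with 32.7, while the potassium channel gene KCNMA1 with 28.0 and the synaptic scaffold gene DLG2 with 27.3 were outside.

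The 5 members of largest span were CNTNAP2, PTPRD, DMD, MACROD2 and LRP1B, all of which were transcribed at modest levels. CNTNAP2 (chromosome 7, 146116002 to 148420998, GRCh38 coordinates as in the files) had 5.00 ± 0.70 TPM in H2A_DMSO (SD, n = 4), 4.31 ± 1.68 with JQ1, 4.04 ± 0.33 with pinometostat and 4.69 ± 0.91 in E92K_DMSO. PTPRD, a receptor tyrosine phosphatase spanning 2298 kb, had 4.13 ± 0.33 TPM in H2A_DMSO, and DMD, the dystrophin gene spanning 2242 kb, had 3.76 ± 0.52 TPM. MACROD2 (2058 kb), a mono-ADP-ribosylhydrolase, had 1.01 ± 0.04 TPM and LRP1B (1900 kb), a lipoprotein receptor relative, had 0.784 ± 0.086 TPM. None of these 5 genes passed the test in any of the 3 comparisons. With JQ1 their log2 fold changes were -0.01 for CNTNAP2, 0.03 for PTPRD, -0.10 for DMD, 0.23 for MACROD2 and 0.14 for LRP1B.

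The members of highest level were far above the rest. SND1, a nuclease-domain coactivator and component of RNA-silencing complexes, had 203 ± 26.0 TPM in H2A_DMSO, 197 ± 49.3 with JQ1, 121 ± 9.42 with pinometostat and 175 ± 23.4 in E92K_DMSO (SD, n = 4). GPC3, a cell-surface heparan sulfate proteoglycan, had 175 ± 9.85 TPM in H2A_DMSO, and STAG2, a cohesin subunit, had 105 ± 5.88 TPM. ADK, adenosine kinase, had 63.6 ± 6.40 TPM and FAF1, a ubiquitin-binding adaptor, had 40.1 ± 3.22 TPM in the same group. Of these 5, SND1 passed the test, with pinometostat; ADK with pinometostat missed it at a log2 fold change of 0.37 with an adjusted p of 0.0572 (edgeR quasi-likelihood test, Benjamini-Hochberg adjustment over all 17306 genes, which is the test behind every adjusted p of the gene calls).

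Promoter sequences of 6 called members are shown because these genes moved in opposite directions with JQ1 or fell with pinometostat. Each is the 250 bases before a RefSeq start on GRCh38.p14, read 5′ to 3′ on the gene's strand, and capitals mark 4 motifs on either strand: the GC box GGGCGG, the TATA box with the letters TATAAA, the CCAAT box, and the motif TGACG, which is the core of a cyclic AMP response element. All 6 genes lie on the plus strand, at chr1:65792260-65792509 for PDE4B, chr15:47183839-47184088 for SEMA6D, chr20:52972108-52972357 for TSHZ2, chr19:30225342-30225591 for ZNF536, chr3:50674677-50674926 for DOCK3 and chr2:32946703-32946952 for LTBP1. The first pair fell with JQ1, the next 3 rose with JQ1, and LTBP1 fell with pinometostat.
PDE4B: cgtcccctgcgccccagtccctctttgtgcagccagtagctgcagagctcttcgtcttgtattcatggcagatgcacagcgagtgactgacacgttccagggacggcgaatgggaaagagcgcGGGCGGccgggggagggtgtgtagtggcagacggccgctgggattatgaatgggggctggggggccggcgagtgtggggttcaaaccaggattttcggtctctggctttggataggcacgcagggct
SEMA6D: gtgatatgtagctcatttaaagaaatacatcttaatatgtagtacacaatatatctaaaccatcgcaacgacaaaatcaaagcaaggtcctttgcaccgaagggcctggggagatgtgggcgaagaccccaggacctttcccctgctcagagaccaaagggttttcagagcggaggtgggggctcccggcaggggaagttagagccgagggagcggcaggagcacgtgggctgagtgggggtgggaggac
TSHZ2: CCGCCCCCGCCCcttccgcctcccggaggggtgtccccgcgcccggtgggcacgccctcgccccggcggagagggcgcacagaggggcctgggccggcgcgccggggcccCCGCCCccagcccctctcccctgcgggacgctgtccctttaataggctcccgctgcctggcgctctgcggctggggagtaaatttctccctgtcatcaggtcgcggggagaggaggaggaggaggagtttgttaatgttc
ZNF536: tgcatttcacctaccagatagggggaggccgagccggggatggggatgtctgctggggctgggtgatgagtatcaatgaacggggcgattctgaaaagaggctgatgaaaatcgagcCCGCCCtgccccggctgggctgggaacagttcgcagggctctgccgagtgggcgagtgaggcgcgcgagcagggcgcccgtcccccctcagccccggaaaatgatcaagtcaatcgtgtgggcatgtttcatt
DOCK3: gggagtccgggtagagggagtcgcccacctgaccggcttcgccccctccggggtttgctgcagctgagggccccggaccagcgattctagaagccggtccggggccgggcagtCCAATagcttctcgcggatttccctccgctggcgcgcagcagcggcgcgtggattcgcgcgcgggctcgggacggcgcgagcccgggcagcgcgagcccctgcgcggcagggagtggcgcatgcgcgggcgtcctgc
LTBP1: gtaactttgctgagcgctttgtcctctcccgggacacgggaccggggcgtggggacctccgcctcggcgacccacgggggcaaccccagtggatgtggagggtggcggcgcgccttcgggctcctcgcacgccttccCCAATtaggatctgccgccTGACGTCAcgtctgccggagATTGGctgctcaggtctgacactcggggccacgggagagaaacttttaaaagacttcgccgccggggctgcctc

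The sequences do not share a layout. PDE4B held 1 GC box and 17 CpG dinucleotides, and SEMA6D held none of the 4 motifs and 9 CpG. TSHZ2 held 3 GC boxes and 24 CpG, ZNF536 held 1 GC box and 17 CpG, and DOCK3 held 1 CCAAT and 35 CpG. LTBP1 held CCAAT on both strands and TGACG on both strands, where the last 2 matches overlap. RefSeq promoters were matched by symbol for 238 members and for 11489 tested genes. A GC box was in 58.4% of the members' windows and in 67.1% of those of tested genes, CCAAT in 28.99% and 34.7%, TGACG in 22.3% and 29.1%, and TATAAA in 7.56% and 5.39%. Long genes usually have several start sites, and the counts are sums over all of them. The RefSeq starts of the 6 windows shown lay 4 bases (PDE4B), 12 (SEMA6D), 49 (TSHZ2), 2698 (ZNF536), 314 (DOCK3) and 19 (LTBP1) from the outer gene start in the files. The window of ZNF536 thus does not adjoin the counted gene. The window of RORA, not shown, lay inside its gene, 601789 bases from the outer start.

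The libraries held 17779692 to 27599686 counts each, and the members took 0.412% to 0.648% of them. At this depth, counts were simulated independently for 14079 genes with each gene's fitted spread, 200 of them changed. The test recovered 85.1% of genes changed by a fold of 2 and 35.8% of those changed by 1.5 in the JQ1 comparison. No simulated library deviated as a whole and few genes were changed, so recovery in the real libraries may differ. Of the 9 kidney-lineage genes listed as markers, 8 had a mean of at least 1 TPM, led by SIX2 at 40.4 TPM, while PAX8 was near 0 at 0.00751 TPM. None of 8 markers of blood, liver, vessel, glial and heart cells had a mean of 1 TPM over the libraries; GFAP and HBA1 reached 1.82 and 1.74 TPM in single libraries. JQ1 replicate 1 and E92K_DMSO replicate 4 stood apart from the other libraries: mitochondrial genes took 16.5% and 7.45% of their counts, against 3.04% to 5.04% in the other 14. They also had the lowest share of counts in long genes, 0.412% and 0.465%, so results are given with and without them.

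With JQ1, 22 of the 296 long genes rose and 10 fell at an adjusted p below 0.05. Over all tested genes 7.16% rose and 10.4% fell. The share of members that rose (7.43%) was thus near that background, while the share that fell (3.38%) was below it; no test of that difference was run. The median log2 fold change of the members was 0.18, with 232 of 296 above 0 (78.4%), against a median of 0.04 and 54.9% above 0 over all tested genes. The changes were small: the middle 50% of members lay between 0.03 and 0.30. A log2 fold change of at least 1 in size was reached by 4 members, and by 7.58% of all tested genes. Among the 4 members was PHACTR1, an actin-binding phosphatase regulator chosen here after its values were seen, at 1.05 with an adjusted p of 0.0852.

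The JQ1 libraries did not move as 1 group. Against the H2A_DMSO mean, the median deviation of the members in log2 CPM (CPM, counts scaled to library size with TMM factors, here with a prior count of 2) was 0.19, 0.22 and 0.32 in replicates 2, 3 and 4, and -0.15 in replicate 1. Replicates 2 to 4 lay above every H2A_DMSO library, each of which was set against the mean of the other 3 controls and gave 0.13, 0.01, -0.05 and -0.07. Replicate 1, the library with 16.5% mitochondrial counts, lay below all of them. The pinometostat libraries lay between -0.10 and -0.02, inside the range of the controls except for replicate 3. Replicates 1, 2 and 3 of E92K_DMSO lay between -0.05 and 0.01, and replicate 4, with 7.45% mitochondrial counts, lay at -0.27, the lowest of all 16. The part of the mitochondrial share in these medians was not tested.

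**Figure D1:**
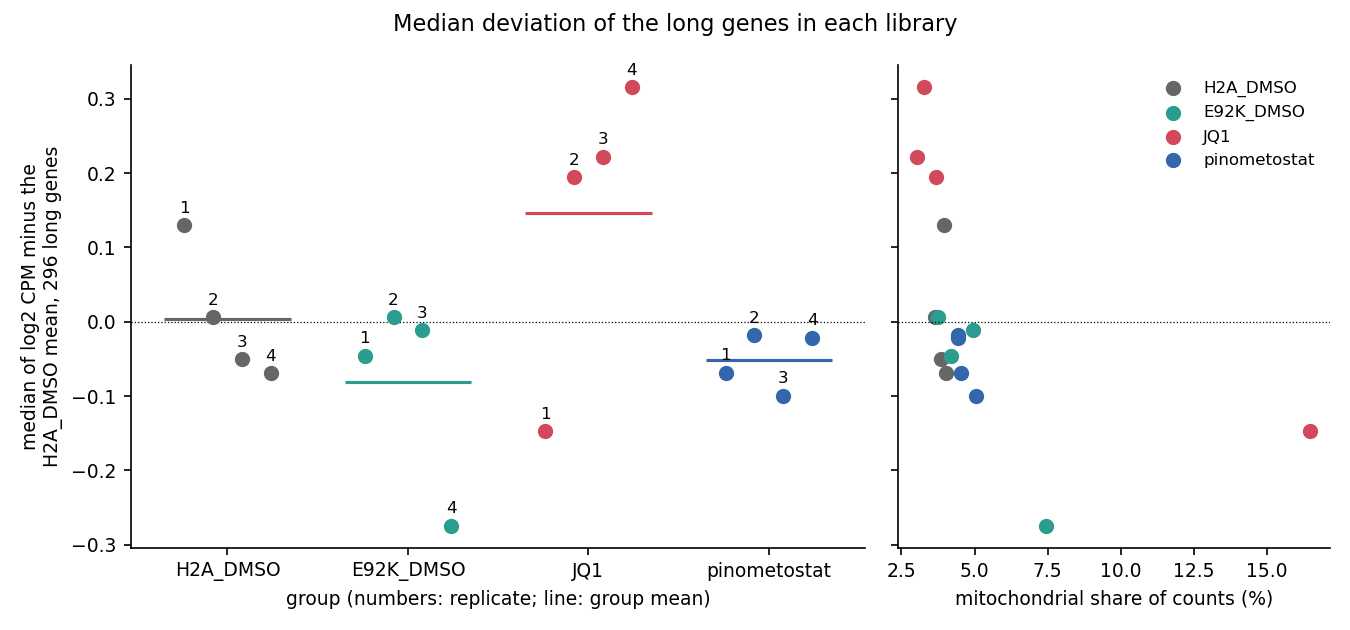
Left, the median over the 296 long genes of log2 CPM minus the H2A_DMSO mean in each of the 16 libraries (for an H2A_DMSO library, minus the mean of the other 3), by group, with numbers for replicates and a line for each group's mean; right, the same medians against the percent of counts on mitochondrial genes. JQ1 replicates 2 to 4 lie between 0.19 and 0.32, above the other 13 libraries, and the 2 libraries with most mitochondrial counts, JQ1 replicate 1 and E92K_DMSO replicate 4, are the lowest at -0.15 and -0.27.

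Without those 2 libraries together, 65 members rose and 12 fell, beside 10.2% and 13.8% of all tested genes, with a member median of 0.23. The number of rises also changed with single libraries. It was 32 without JQ1 replicate 1 alone (6.3% of all genes tested in that fit) and 23 without H2A_DMSO replicate 1 (5.88%). It was 11 without H2A_DMSO replicate 2 (4.94%), 6 without H2A_DMSO replicate 3 (4.18%) and 7 without H2A_DMSO replicate 4 (4.74%). Without JQ1 replicates 2, 3 and 4 in turn it was 15 (5.72%), 17 (6.56%) and 14 (8.24%). No long gene passed as higher when the 8 libraries of the comparison were fitted alone, with scaling by library size, or with limma on log2(TPM + 1). Those last 2 scalings lower the median log2 fold change of all tested genes to -0.14 and -0.21, and the members' median relative to it was 0.14 and 0.13, against 0.14 with TMM scaling. With TMM scaling that distance was 0.21 without JQ1 replicate 1 and 0.08 without JQ1 replicate 4. The falls ranged from 8 to 14 over these settings at the same threshold.

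The 5 largest falls with JQ1 were in PDE4B, RASGEF1B, SEMA6D, GALNTL6 and RARB. PDE4B (chromosome 1, 65792514 to 66374579), which degrades cyclic AMP, had 1.58, 1.52, 1.55 and 2.10 CPM in the H2A_DMSO libraries 1 to 4 and 0.218, 0.684, 0.776 and 0.700 CPM in the JQ1 libraries. Every JQ1 value was below every control value, although the first rests on 3 reads, and the log2 fold change was -1.45 ± 0.33 (SE, adjusted p = 0.00486, edgeR). RASGEF1B (chromosome 4, 81426393 to 82044244), an exchange factor for RAS-family GTPases, had 6.12, 5.66, 5.53 and 10.3 CPM in the controls and 3.77, 3.13, 2.69 and 3.27 CPM with JQ1. These groups did not overlap either, with a log2 fold change of -1.11 ± 0.22 (SE, adjusted p = 0.00194, edgeR). SEMA6D (chromosome 15, 47184101 to 47774223), a transmembrane semaphorin that guides axons, had 4.51, 3.74, 2.85 and 4.96 CPM in the controls and 1.52, 1.76, 2.49 and 2.15 CPM with JQ1. The highest JQ1 library was below the lowest control, and the log2 fold change was -1.01 ± 0.22 (SE, adjusted p = 0.00336, edgeR).

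GALNTL6 (chromosome 4, 171812254 to 173041559), a member of the family of enzymes that start mucin-type O-glycosylation, spans 1229 kb and had the smallest adjusted p of the members. It had 10.4, 12.1, 12.4 and 9.99 CPM in the controls and 4.71, 6.40, 7.20 and 6.53 CPM with JQ1, with a log2 fold change of -0.85 ± 0.14 (SE, adjusted p = 0.000427, edgeR). RARB (chromosome 3, 25174332 to 25597932), a retinoic acid receptor, had 12.6, 13.0, 11.7 and 12.3 CPM in the controls and 4.79, 7.32, 7.35 and 9.05 CPM with JQ1. Its groups were apart as well, with a log2 fold change of -0.79 ± 0.19 (SE, adjusted p = 0.00683, edgeR). PDE4B, RASGEF1B, SEMA6D, GALNTL6 and RARB were called lower under all 17 other settings, the 5 of the 16 genes with the largest changes for which this held.

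The other 5 falls were smaller. NCALD, a neuronal calcium sensor, had a log2 fold change of -0.67, the secreted semaphorin gene SEMA3A of -0.59 and EGLN3, a prolyl hydroxylase that acts on hypoxia-inducible factors, of -0.57. PDE4D, another cyclic AMP phosphodiesterase, spans 1553 kb and fell by 0.57 on the log2 scale. AUTS2, a chromatin regulator of neuronal genes spanning 1194 kb, fell by 0.54. With each of the 8 libraries left out in turn, NCALD lost its call in 6 cases and SEMA3A and EGLN3 in 3 each. In all 10 genes that fell, no JQ1 library reached the level of a control library. These genes were picked by the test on the same values, and no share of all tested genes with separate groups was taken. Such separation, here and in the other called genes, is a description and adds no further support.

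The rises with JQ1 were smaller than the largest falls and in several genes were highest in replicate 1. TSHZ2 (chromosome 20, 52972407 to 53495330), a zinc-finger transcription factor, had 7.77, 7.01, 6.02 and 5.07 CPM in the controls and 22.2, 9.33, 8.85 and 9.56 CPM with JQ1. The groups did not overlap, but JQ1 replicate 1 was far above the other 3, and the log2 fold change was 0.93 ± 0.28 (SE, adjusted p = 0.0293, edgeR). Without that library it was 0.48 and did not pass (adjusted p = 0.121, edgeR), and the call was lost without any of H2A_DMSO replicates 2, 3 and 4 as well (adjusted p = 0.0551, 0.0748 and 0.0903, edgeR). TENM1 (chromosome X, 124375903 to 124963817), a teneurin that spans synapses, had 17.1, 23.0, 18.0 and 15.1 CPM in the controls and 44.8, 25.2, 23.0 and 26.5 CPM with JQ1. JQ1 replicate 3 and control replicate 2 had the same rounded value, and the log2 fold change was 0.70 ± 0.19 (SE, adjusted p = 0.0143, edgeR). Without JQ1 replicate 1 it was 0.41 (adjusted p = 0.0486, edgeR), and without H2A_DMSO replicate 4 the call was lost (adjusted p = 0.0516, edgeR). ZNF536 (chromosome 19, 30228290 to 30713538), a zinc-finger repressor of neuronal differentiation, showed the opposite layout, with 8.49, 7.45, 6.55 and 5.56 CPM in the controls and 7.98, 11.5, 12.4 and 12.5 CPM with JQ1. Only replicate 1 overlapped the controls, and the log2 fold change was 0.67 ± 0.16 (SE, adjusted p = 0.0066, edgeR).

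DOCK3, an exchange factor for the GTPase RAC, had 13.4, 14.99, 12.9 and 10.9 CPM in the controls and 23.6, 19.6, 15.4 and 17.7 CPM with JQ1. TIAM1, which also activates RAC, had 23.5, 20.2, 19.4 and 14.9 CPM in the controls and 22.8, 29.6, 28.0 and 31.7 CPM with JQ1, so that replicate 1 was inside the control range. Their log2 fold changes were 0.54 for DOCK3 and 0.53 for TIAM1. The electron-transfer oxidase gene ENOX1 (0.53), the phospholipase gene PLCB4 (0.52) and the potassium channel gene KCNQ5 (0.49) completed the 8 largest rises described here, and the smallest of the 22 was RSRC1, a splicing factor, at 0.30. With each of the 8 libraries of the comparison left out in turn, DOCK3, ENOX1 and KCNQ5 lost their call in 5 cases each, PLCB4 in 2 and TIAM1 in 1, H2A_DMSO replicate 4 (adjusted p = 0.0652, edgeR). In the plot of the named genes by library, the controls and JQ1 samples of all 8 falls stand apart, and replicate 1 is the highest JQ1 value of TSHZ2, TENM1, DOCK3 and ENOX1 and the lowest of ZNF536, TIAM1, PLCB4 and KCNQ5.

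**Figure D2:**
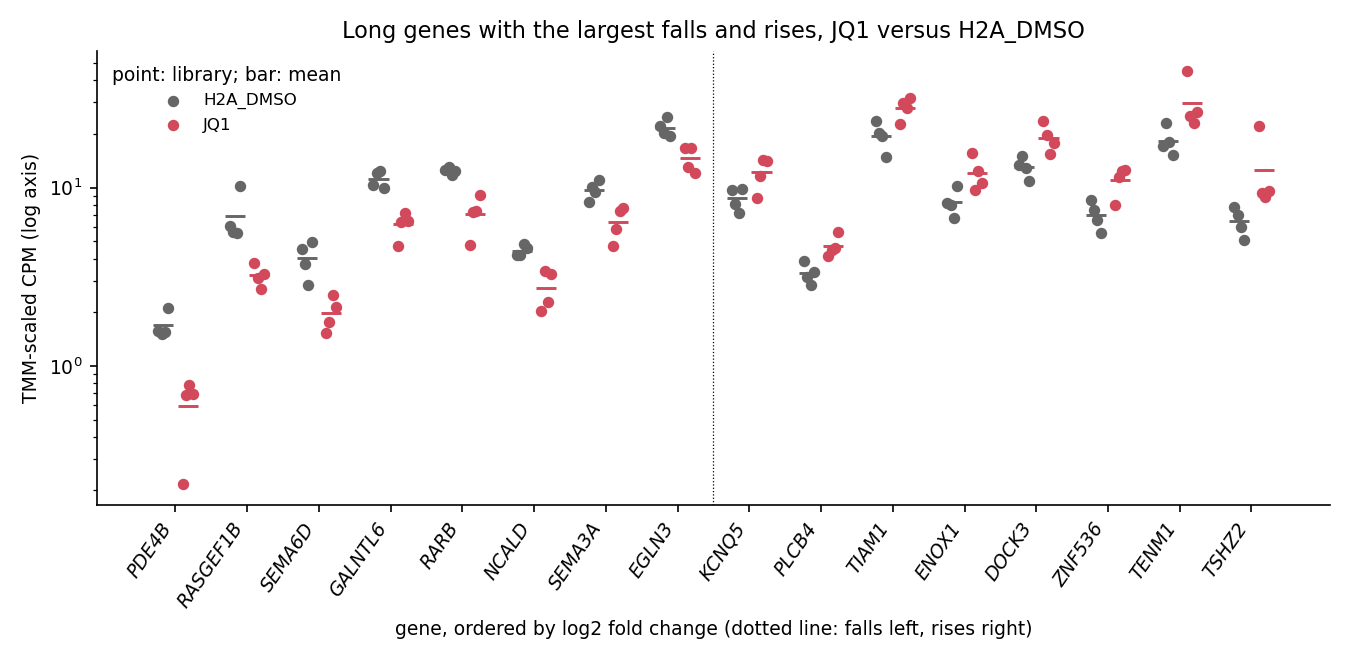
TMM-scaled CPM on a log axis of the 8 long genes with the largest falls and the 8 with the largest rises with JQ1, each point 1 library and each bar the mean of 4, H2A_DMSO in grey and JQ1 in red. PDE4B in JQ1 replicate 1 is the lowest point at 0.218 CPM and TENM1 in JQ1 replicate 1 the highest at 44.8 CPM.

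By role, the calls with JQ1 were spread. Over all 296 members 7.43% rose and 3.38% fell, and over all tested genes 7.16% and 10.4%. No role was tested against these shares. Among 51 kinases, phosphatases, phosphodiesterases and GTPase regulators, 7 rose, 3 fell and 41 did not pass, with a median log2 fold change of 0.19; the rises were TIAM1, DOCK3, PLCB4, FER, ROR1, CAMK1D and ARHGAP26 and the falls RASGEF1B, PDE4B and PDE4D. Among 28 neural adhesion and axon guidance genes, 1 rose (TENM1), 2 fell (SEMA6D and SEMA3A) and 25 did not pass, with a median of 0.19. Of 46 regulators of transcription, chromatin and RNA, ZNF536 and TSHZ2 rose, RARB and AUTS2 fell and 42 did not pass, with a median of 0.18. The 22 ion channels, pumps and neurotransmitter receptors had 2 rises, GRID1 and KCNQ5, no fall and 20 that did not pass, with a median of 0.26. Of 34 cytoskeletal, junction and polarity genes, PARD3 and UTRN rose and 32 did not pass, with a median of 0.22. HS6ST3 rose and GALNTL6 fell among 22 matrix, proteoglycan and glycosylation genes, with a median of 0.11, and SCFD2 rose among 21 membrane traffic genes, with a median of 0.18. All 7 medians were above the 0.04 of all tested genes, and 72 members were on none of these lists. Of 22 genes at common fragile sites, a list that overlaps the others, AUTS2 fell and 20 did not pass, with a median of 0.13.

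Across all 17306 tested genes, the relation of the JQ1 fold change to span was not a straight one. The median log2 fold change went from 0.07 in genes under 10 kb to 0.01 in those of 50 to 100 kb and 0.01 in those of 100 to 200 kb, then to 0.08 in those of 200 to 400 kb and 0.16 in the 388 of at least 400 kb. The short end of this relation differed by library. In genes under 10 kb the median deviation from the controls was 0.28 in JQ1 replicate 1. It was 0.03, -0.02 and -0.10 in replicates 2, 3 and 4. Spearman's rho over all tested genes was -0.03 (a description across genes, which are not independent). The share of genes that fell went down class by class, from 12.1% under 10 kb through 10.9%, 10.5%, 8.76% and 4.35% to 2.58% in genes of at least 400 kb. The share that rose lay between 5.27% and 8.05% in all 6 classes. In genes with a mean count of at least 30, the falls likewise went from 14.9% under 10 kb to 3.22% at 400 kb and above. Within the members, spans of 400 to 500 kb had a median of 0.19 (111 genes) and those of 500 to 700 kb of 0.17 (98 genes). Spans of 700 to 1000 kb had a median of 0.21 (54 genes) and those of at least 1000 kb of 0.10 (33 genes). In this order the classes held 11, 6, 4 and 1 rises and 2, 5, 0 and 3 falls. Over all tested genes 7.16% rose and 10.4% fell.

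**Figure D3:**
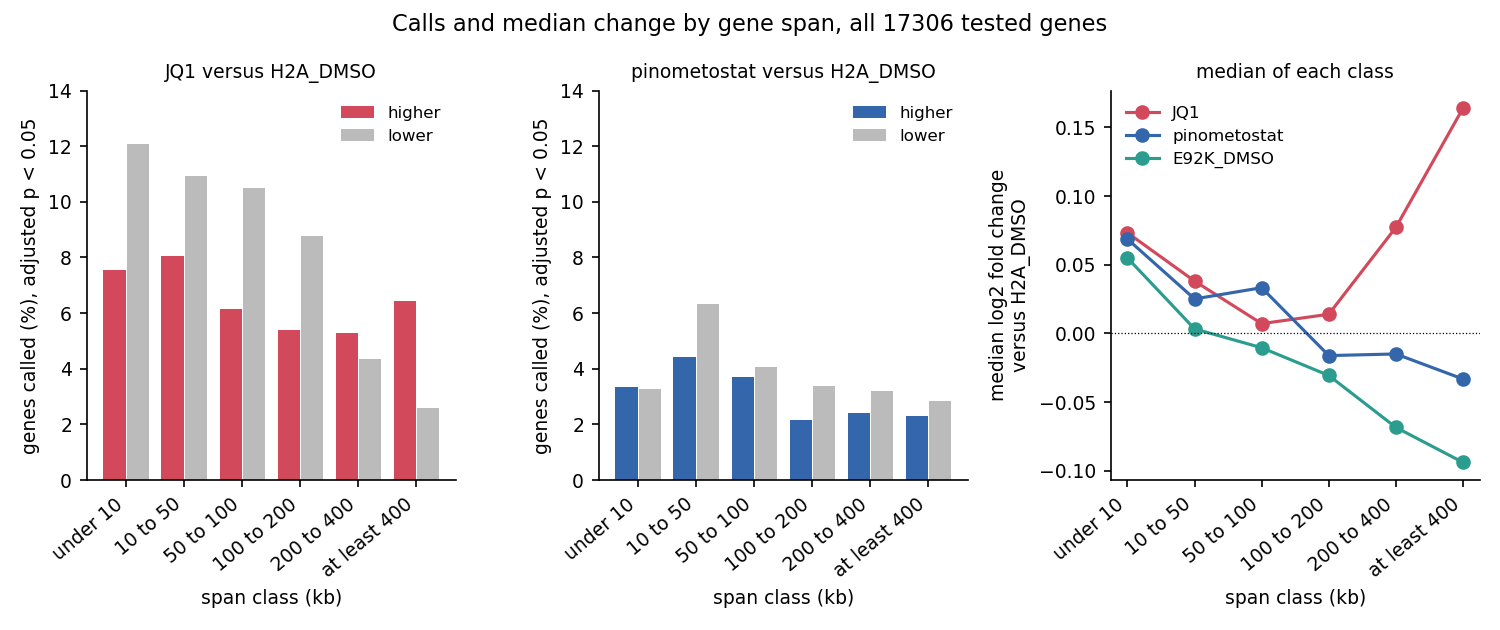
Left and middle, bars from 0 giving the percent of genes called higher (coloured) and lower (grey) in 6 classes of gene span with JQ1 and with pinometostat; right, the median log2 fold change of each class in the 3 comparisons with H2A_DMSO. With JQ1 the share of falls drops from 12.1% to 2.58% over the classes and the median is highest at 0.16 in genes of at least 400 kb, while the pinometostat and E92K_DMSO medians of that class are -0.03 and -0.09.

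Single JQ1 libraries moved this relation and its direction. The rho of fold change against span was 0.15 without JQ1 replicate 1 and -0.10 without JQ1 replicate 4, the ends of the range over single libraries left out, and 0.15 without JQ1 replicate 1 and E92K_DMSO replicate 4 together. By library, the rho of the deviation from the controls against span was -0.21 in JQ1 replicate 1 and 0.04, 0.10 and 0.23 in replicates 2, 3 and 4. The control libraries, each against the other 3, gave 0.14, 0.00, -0.13 and -0.06, so that the control spread takes in replicates 2 and 3. E92K_DMSO replicate 4 gave -0.29 and the other 3 libraries of that group -0.01 to 0.04. The 4 pinometostat libraries gave -0.09 to -0.05, inside the control spread.

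With pinometostat, 9 long genes rose and 10 fell. Over all tested genes 3.62% rose and 4.58% fell, so the members' shares of 3.04% and 3.38% were near the background. Their median log2 fold change was -0.06, against 0.03 over all tested genes, with 127 of 296 above 0 (42.9%), against 53.1% of all tested genes. No member moved by a log2 fold change of at least 1 in size, against 2.22% of all tested genes. The falls were SND1, MAD1L1, TRAPPC9, ELMO1, RPTOR, GMDS, SDK1, LTBP1, TENM3 and BABAM2. The rises were RIMS2, RORA, TENM1, SLC44A5, DLEU1, RANBP17, DNAH14, METTL15 and KIAA1328.

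SND1 (chromosome 7, 127652180 to 128092609) had 459, 382, 385 and 401 CPM in the controls and 257, 276, 254 and 283 CPM with pinometostat. All 4 treated libraries were below all controls, with a log2 fold change of -0.60 ± 0.09 (SE, adjusted p = 0.00428, edgeR), and it was the 1 gene of the 16 largest changes called under all 17 other settings. MAD1L1 (chromosome 7, 1815793 to 2233243), which encodes the spindle checkpoint protein MAD1, had 41.3, 35.4, 33.7 and 31.9 CPM in the controls and 23.8, 23.4, 18.7 and 23.9 CPM with pinometostat. The groups were apart, with a log2 fold change of -0.66 ± 0.16 (SE, adjusted p = 0.018, edgeR), and the call was lost without H2A_DMSO replicate 1 or pinometostat replicate 3 (adjusted p = 0.0758 and 0.0569, edgeR). TRAPPC9 (chromosome 8, 139730343 to 140458579), a subunit of a vesicle-tethering complex, had 28.0, 24.2, 23.0 and 19.5 CPM in the controls and 13.5, 17.3, 15.2 and 15.4 CPM with pinometostat. Its log2 fold change was -0.63 ± 0.12 (SE, adjusted p = 0.00947, edgeR).

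RPTOR, the subunit that brings substrates to the kinase complex mTORC1, had 67.9, 49.6, 45.1 and 40.2 CPM in the controls and 34.6, 36.6, 29.9 and 40.6 CPM with pinometostat. Here pinometostat replicate 4 reached the lowest control, and the log2 fold change was -0.52. LTBP1, which binds latent TGF-beta in the matrix, had 50.1, 42.0, 42.7 and 43.0 CPM in the controls and 31.6, 28.95, 35.7 and 31.8 CPM with pinometostat, groups that did not overlap, with a log2 fold change of -0.47. ELMO1, which activates RAC together with DOCK proteins, fell by 0.58 on the log2 scale, and SDK1, an adhesion protein of synaptic layers, fell by 0.50. TENM3, a teneurin, and BABAM2, a subunit of a deubiquitinating complex in DNA repair, fell by 0.47 and 0.44. With each of the 8 libraries left out in turn, SDK1 lost its call in 7 cases and RPTOR and ELMO1 in 5 each, while SND1, TRAPPC9, GMDS and LTBP1 kept theirs in all 8. MAD1L1, SND1, ELMO1 and SDK1 lie on chromosome 7, a count noticed after the calls were seen; the 865 tested genes of that chromosome had a median log2 fold change of 0.05, with 38 rises and 42 falls.

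Among the rises, RIMS2 (chromosome 8, 103500748 to 104256094), a scaffold of the synaptic release site, had 1.31, 1.38, 1.098 and 1.39 CPM in the controls and 2.33, 2.18, 2.80 and 2.19 CPM with pinometostat. The groups were apart at this low level, with a log2 fold change of 0.87 ± 0.21 (SE, adjusted p = 0.0209, edgeR). RORA (chromosome 15, 60488284 to 61229319), a nuclear receptor of the circadian and lipid programmes, had 5.37, 7.18, 5.61 and 3.98 CPM in the controls and 8.82, 11.4, 7.70 and 11.2 CPM with pinometostat. Its log2 fold change was 0.82 ± 0.18 (SE, adjusted p = 0.0131, edgeR), with no overlap. TENM1 had 29.8, 33.0, 27.5 and 35.4 CPM with pinometostat, all above the highest control of 23.0 CPM, with a log2 fold change of 0.78 ± 0.19 (SE, adjusted p = 0.0194, edgeR). SLC44A5, a choline transporter-like protein (0.52), the non-coding gene DLEU1 (0.51), the exportin relative RANBP17 (0.44), the dynein heavy chain gene DNAH14 (0.42), the methyltransferase gene METTL15 (0.38) and KIAA1328 (0.37) followed. RIMS2, RORA and TENM1 lost their call without H2A_DMSO replicate 1 (adjusted p = 0.0743, 0.0546 and 0.0827, edgeR), as did the other 5 of the 8 largest rises. With each of the 8 libraries left out in turn, RIMS2 lost its call in 4 cases, RORA in 1 and TENM1 in 2, and the other 5 in 4 to 7.

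**Figure D4:**
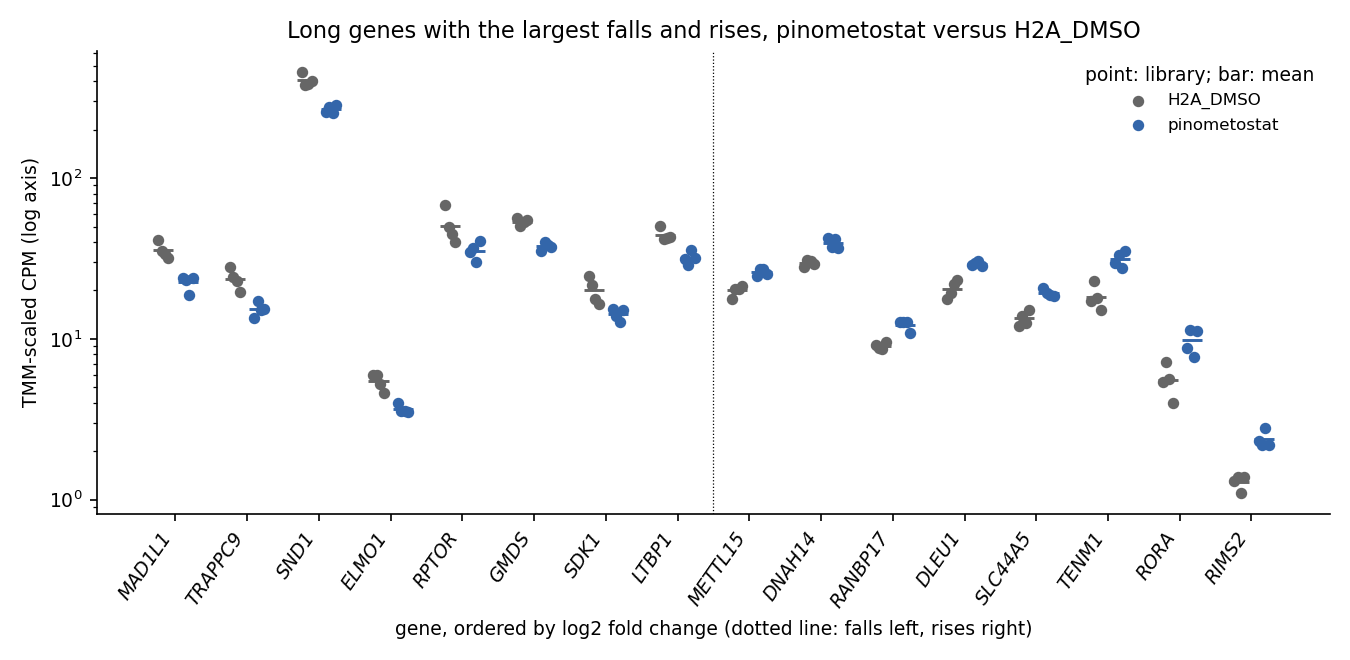
TMM-scaled CPM on a log axis of the 8 long genes with the largest falls and the 8 with the largest rises with pinometostat, each point 1 library and each bar the mean of 4, H2A_DMSO in grey and pinometostat in blue. SND1 lies highest, with controls of 382 to 459 CPM and treated libraries of 254 to 283 CPM, and RPTOR is the 1 gene of the 16 whose groups overlap.

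The pinometostat calls divided by the GC content of the transcripts. The longest annotated transcripts of the 9 genes that rose had 35.8% to 44.0% G and C, and those of the 10 that fell had 47.1% to 62.6%, with no overlap. In the lowest tercile of all tested genes by GC content, 9 of 144 members rose and 0 fell, against 6.75% and 0.505% of the tested genes in that tercile. In the middle tercile 0 of 123 members rose and 4 fell, against 2.89% and 2.73% of the tested genes there. In the highest tercile 0 of 29 members rose and 6 fell, against 1.2% and 10.6%. Spearman's rho of the pinometostat fold change against GC content was -0.49 over the 296 members and -0.38 over the 17231 tested genes with a GC value, given as a description across genes. The division was thus present in all tested genes and not in long genes alone.

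The same slope was seen without any call in E92K_DMSO, where rho was -0.40 over the members. The 2 comparisons share their controls, and the controls differed along the same axis: against the other 3, H2A_DMSO replicate 1 had a rho with GC content of 0.37 over the members, replicates 2 and 3 had 0.07 and -0.06, and replicate 4 had -0.33. The pinometostat libraries had -0.46, -0.38, -0.46 and -0.31, so 3 of the 4 lay beyond the control range. Without H2A_DMSO replicate 1 the rho over the members was -0.44 with pinometostat and -0.30 in E92K_DMSO, and 0 long genes rose and 5 fell with pinometostat, beside 0.449% and 1.16% of all genes tested in that fit. Without JQ1 replicate 1 and E92K_DMSO replicate 4 together the rho over the members was -0.494 with pinometostat and -0.488 in E92K_DMSO. With JQ1 the rho was 0.14, and both rises (37.9% to 56.3%) and falls (36.7% to 56.3%) took in low and high GC content. The part of GC content in the calls was not tested.

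**Figure D5:**
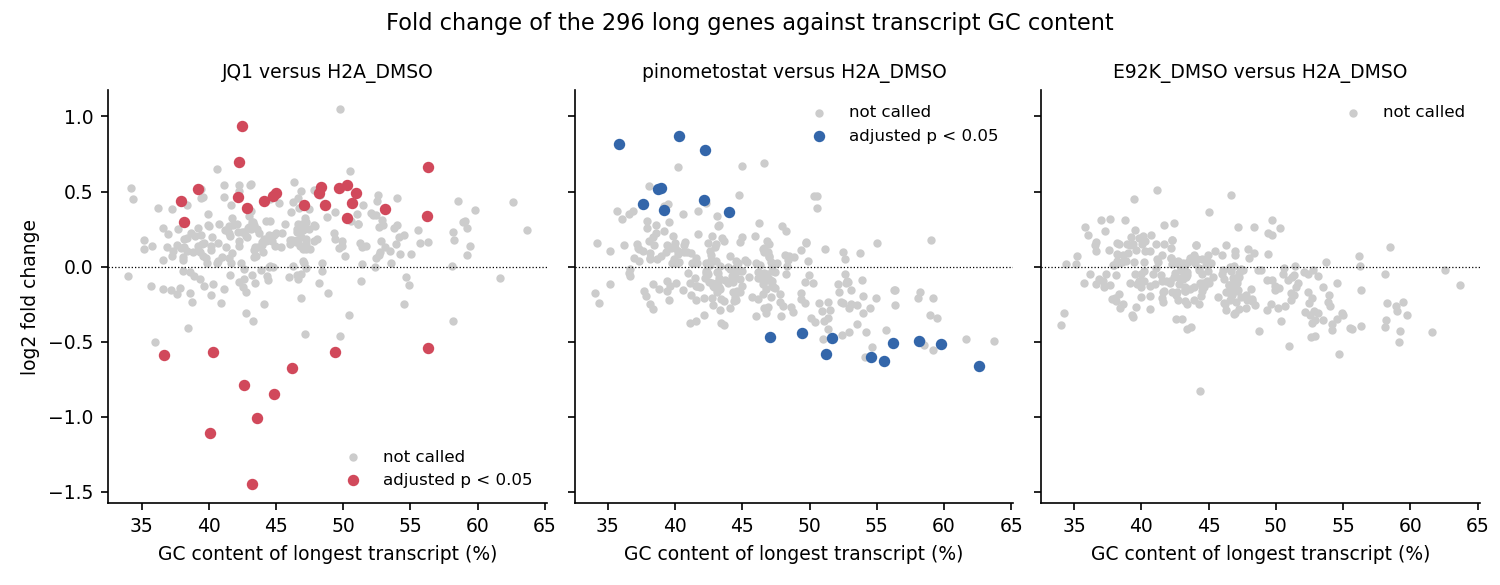
Log2 fold change of the 296 long genes against the GC content in percent of the longest annotated transcript, in the 3 comparisons with H2A_DMSO, grey for genes not called and coloured for an adjusted p below 0.05. With pinometostat every coloured point above 0 lies at or under 44.0% and every one below 0 at or over 47.1%, while the JQ1 calls of both directions share a range.

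By role the pinometostat calls were also few. Over all 296 members 3.04% rose and 3.38% fell, and over all tested genes 3.62% and 4.58%. No role was tested against these shares. TENM1 rose and TENM3 and SDK1 fell among the 28 neural adhesion and axon guidance genes, with a median log2 fold change of -0.03. RORA rose and SND1 and BABAM2 fell among 46 regulators of transcription, chromatin and RNA, with a median of -0.09. RIMS2 rose and TRAPPC9 fell among 21 membrane traffic genes, with a median of -0.17, the lowest of the 7 roles. None of the 51 signalling genes rose and ELMO1 and RPTOR fell, with a median of -0.07. LTBP1 was the 1 fall among 22 matrix genes (median -0.12), DNAH14 the 1 rise among 34 cytoskeletal and junction genes (median -0.10) and SLC44A5 the 1 rise among 22 channels and transporters (median 0.02). Among the 22 fragile-site genes RORA rose and 21 did not pass.

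The counts with pinometostat depended on which libraries shared the fit. When the 8 libraries of the comparison were fitted alone, 15 members rose and 38 fell, beside 12.5% and 15.1% of the genes tested in that fit. Without JQ1 replicate 1 and E92K_DMSO replicate 4 together, 19 rose and 39 fell, beside 12.9% and 14.5%. With 1 library left out, calls became fewer among all tested genes too, except without H2A_DMSO replicate 4. In that fit 11 members rose and 14 fell, beside 3.86% and 4.93% of all genes tested. The rises were 3 without H2A_DMSO replicate 2 (1.71% of all genes tested in that fit), 2 without H2A_DMSO replicate 3 (1.54%) and 2 without pinometostat replicate 1 (1.02%). They were 5 without pinometostat replicate 2 (1.64%), 4 without replicate 3 (1.68%) and 5 without replicate 4 (1.68%), and the falls were 6 without replicate 3 (2.23%).

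The relation of the pinometostat fold change to span was weak over all tested genes, with a rho of -0.08 and class medians from 0.07 under 10 kb to -0.03 at 400 kb and above. Since short genes have GC-rich transcripts (a median of 53.8% under 10 kb against 44.1% at 400 kb and above), the relation was also taken within terciles of GC content, a choice made after seeing the data. Within the lowest, middle and highest tercile the rho was -0.22, -0.25 and -0.24, each further from 0 than the pooled value. The JQ1 values within the same terciles were 0.06, 0.03 and -0.01. Those of E92K_DMSO, which shares the controls and had no call, were -0.31, -0.29 and -0.27. The pooled E92K_DMSO rho went from -0.15 to 0.01 without its replicate 4. The tercile values were not taken without that library, so they cannot show whether the relation was particular to pinometostat. In genes with a mean count of at least 30, the pooled pinometostat rho was -0.04. In the terciles, the members' median with JQ1 was 0.14, 0.20 and 0.20, against -0.01, 0.03 and 0.12 for all tested genes. Among members alone the rho against span was -0.09 with JQ1, 0.06 with pinometostat and 0.01 in E92K_DMSO (n = 296 genes each).

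In E92K_DMSO, 0 long genes passed the test, as did 0% of all tested genes. At an unadjusted p below 0.05, 21 members (7.09%) and 1296 of all tested genes (7.49%) differed by edgeR, and no setting or other tool called a member, while DESeq2 called 0.00578% of all tested genes higher and 0.0173% lower. The smallest unadjusted p of a member was 0.00144, for CDH23, a cadherin of hair cells chosen here after its values were seen, with a log2 fold change of -0.43 and an adjusted p of 0.656. The member median was -0.09, against 0.00 over all tested genes, and 95 of 296 were above 0 (32.1%), against 50.2% of all tested genes. Without E92K_DMSO replicate 4 the rho of fold change against span went from -0.15 to 0.01 over all tested genes, and the member median was -0.05. With JQ1 replicate 1 left out as well, the member median was -0.02.

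Set directly against each other, the 2 compounds differed in more long genes than either did from the controls; their doses and times differ (1 µM for 3 h and 2.5 µM for 24 h), so the compound and the exposure cannot be told apart. In the same fit, 68 members were higher with JQ1 than with pinometostat and 14 were lower. Over all tested genes 16.8% were higher and 17.4% lower. The members' shares were 23.0% and 4.73%, and their median difference was 0.21 on the log2 scale against -0.01. Without JQ1 replicate 1, 113 members were higher and 16 lower, beside 20.5% and 18.5% of tested genes, while limma on log2(TPM + 1) called 9 higher and 11 lower, beside 5.62% and 15.7%, so that under that setting the share of members called higher was below the background.

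GMDS, which makes GDP-fucose for fucosylation, was called in opposite directions by the 2 compounds. It had 56.2, 50.3, 53.6 and 54.6 CPM in the controls, 85.4, 61.3, 60.7 and 63.4 CPM with JQ1 and 35.3, 39.9, 38.3 and 37.3 CPM with pinometostat. The 3 groups did not overlap, the log2 fold changes were 0.33 and -0.51, and the difference between them was 0.84 ± 0.11 (SE, adjusted p = 2.18e-05, edgeR). TENM1 and RANBP17 rose with both: TENM1 by 0.70 and 0.78 and RANBP17 by 0.47 and 0.44 on the log2 scale. Their differences of -0.08 ± 0.18 for TENM1 and 0.02 ± 0.12 for RANBP17 did not pass (adjusted p = 0.779 and 0.896, edgeR), and these comparisons share the same control libraries.

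Exons of 43 members (14.5%) overlap exons of another tested gene on the opposite strand and those of 6 overlap a gene on the same strand. No label says whether reads were counted by strand, so reads of such pairs may not be told apart. Among the genes named here this applies to RARB, TENM1, RORA, METTL15, KIAA1328, TENM3, BABAM2, RSRC1, ANKS1B, PHACTR1 and STAG2.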

How the data were processed

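The members, gene lists and tests were chosen with earlier results of these data known. Each library has a deposited file of raw counts by gene with exon coordinates, and the series has a deposited table of TPM values, per the file headers. Per the labels' protocols, a service provider extracted the RNA and made the libraries; for the aligner, the counter and strand: not given in the sources used here. Spans came from the exon coordinates in the files, of which 96.3% of shared gene identifiers had the start and end of GENCODE release 29 (GRCh38). Genes were filtered with filterByExpr (minimum count 10, minimum total 15), TMM-scaled and fitted jointly for the 16 libraries by the quasi-likelihood test of edgeR (version 4.0.16, under R 4.3.3), leaving 12 residual degrees of freedom. Benjamini-Hochberg adjustment ran over all 17306 tested genes, with a threshold of 0.05. The fit was tested on simulated data. Named genes were, for each comparison, the 8 largest rises and falls among called members, the 5 of largest span, the 5 of highest mean TPM, those next to a threshold, and role list examples; 1 called member is counted but not reported here by name or value. GC content is that of each gene's longest GENCODE transcript (all 296 members matched). Promoters are from RefSeq. Alternatives were DESeq2 1.42.0 (its size factors and its own test), library size alone, no filter, a threshold of 0.01, limma 3.58.1 on the authors' TPM values as log2(TPM + 1), the 8 libraries alone, a replicate block, each library left out, and other limits of span and count. Same-numbered samples of different groups did not deviate together (correlations -0.56 to 0.24 over 24 pairs), so the numbers were not taken as pairs. JQ1 replicate 1 and E92K_DMSO replicate 4 weigh on these correlations (0.71 between them), so the check cannot exclude shared batches or pairing. No replicate pair matched within sampling noise (the lowest ratio of chi-square to degrees of freedom was 3.77). Precision is limited by 4 samples a group and by 17779692 to 27599686 counts per library.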

Additional observations from a re-analysis of the deposited data

Results flagged for a closer look

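A gap test (Dixon's ratio, which flags about 1 in 20 groups of 4 by chance) was run on 79 groups of 4 values and marked 11. JQ1 replicate 1 stood apart from the other 3 JQ1 libraries in TSHZ2 (22.2 CPM), TENM1 (44.8 CPM) and PDE4B (0.218 CPM), and in its share of mitochondrial counts, 16.5%. H2A_DMSO replicate 4 stood apart in PDE4B (2.10 CPM) and RASGEF1B (10.3 CPM), and H2A_DMSO replicate 1 in LTBP1 (50.1 CPM). Single pinometostat libraries stood apart in RANBP17 (replicate 4, 10.9 CPM), MAD1L1 (replicate 3, 18.7 CPM) and ELMO1 (replicate 1, 3.98 CPM). E92K_DMSO replicate 4 stood apart in the rho of its deviation from the controls against span, -0.29.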

How the results depend on the processing

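With JQ1 the rises were 1 at a threshold of 0.01 (falls 5), 0 with library size alone, 7 with no filter, 8 with a replicate block, 34 with DESeq2, 0 with limma on log2(TPM + 1), 0 with the 8 libraries alone and 65 without JQ1 replicate 1 and E92K_DMSO replicate 4 together. With pinometostat the rises were 0 at a threshold of 0.01 (falls 3), 5 with library size alone, 4 with no filter, 4 with a replicate block, 0 with limma (falls 4), 15 with the 8 libraries alone (falls 38) and 19 without those 2 libraries (falls 39), and the falls were 21 with DESeq2. For JQ1 against pinometostat the rises were 28 with library size alone, 9 with limma, 43 at 0.01 and 121 without those 2 libraries, and the falls 21 there. Leaving out each library in turn gave 6 to 32 rises and 8 to 10 falls with JQ1, 0 to 11 and 5 to 14 with pinometostat, and 53 to 113 and 12 to 16 for JQ1 against pinometostat. The replicate block changed no other count by over 1.5 times. The members' median with JQ1 was 0.18, was 0.0084 with library size alone and turned to -0.0757 with limma, where that of all tested genes was -0.21; with pinometostat it was -0.11 with library size alone and -0.13 with limma, and its distance from all genes was -0.0464 with limma. The rho against span ran from -0.0956 to 0.146 with JQ1, from -0.103 to -0.0598 with pinometostat and from -0.199 to 0.00714 in E92K_DMSO when 1 library was left out, and was 0.00837 in E92K_DMSO without both libraries. With pinometostat it was -0.0385 in genes with a mean count of at least 30 and -0.22, -0.25 and -0.24 within GC terciles, and in E92K_DMSO -0.31 in the lowest tercile. With a span limit of 300000 bases 1.92% of the genes rose with pinometostat; the other shares under limits of 300000 or 600000 bases or a mean count of 100 stayed within 1.5 times. The cause of these shifts was not tested. Of the 16 named genes in each comparison, 5 with JQ1 and 1 with pinometostat were called under all 17 settings, and none reversed. Counts of 17779692 to 27599686 per library and 4 samples a group limit what can be called.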
